A study of Mus musculus with 2 samples.

Results

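The insulin and IGF axis genes described here were 10 of the 18724 genes in the deposited table, picked by name, and none was missing. They encode the ligands IGF1 and IGF2 (Igf1, Igf2), the receptors Igf1r, Insr and Igf2r, the adaptor Irs1, and the secreted binding proteins Igfbp2, Igfbp3, Igfbp4 and Igfbp7. RNA was measured in 2 libraries of luminal epithelial cells sorted from the prostates of mice of 18 weeks. The first library came from label-retaining cells, which had kept a GFP tag carried on a histone (GFP-positive, abbreviated LRC). The other came from cells without the tag, labelled non-retaining (GFP-negative, abbreviated non-LRC). Whether all of those cells had once carried it was not tested. The histone tag is diluted when a cell divides, so cells that divide seldom keep it longer. The sources used here do not state the driver of the tag, the strain, how many mice were pooled or the surface markers of the sort. Each group was 1 library, so no test between groups was possible and no p-value is given. All intervals are 95% intervals that cover counting error only, and PCR copies without molecular identifiers are not independent molecules.

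IGF1, IGF2 and insulin act through related tyrosine kinase receptors, the products of Igf1r and Insr, which recruit insulin receptor substrate proteins such as IRS1 and through them the PI3K, AKT and mTOR pathway and the RAS and ERK pathway. The product of Igf2r binds IGF2 and carries it to lysosomes, and also sorts lysosomal enzymes tagged with mannose 6-phosphate. IGF binding proteins hold the ligands outside the cell and set how much can reach the receptors, and proteases release the ligands by cutting them. In the prostate the axis is known as a growth pathway that works between stroma and epithelium.

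Reads assigned to listed genes summed to 50689229 (LRC) and 48334265 (non-LRC). Luminal markers were present in both libraries. The 10 listed luminal genes held 5.30% of LRC reads and 1.54% of non-LRC reads, and 5 of them were called higher in LRCs by the rule given with the members. Markers of other cells were also present, those of basal, smooth muscle and T and NK cells mostly in the non-LRC library. Basal epithelial markers (10 of 10 lower in the LRC library) held 0.0711% of LRC reads and 0.807% of non-LRC reads. Smooth muscle markers (10 of 10 lower) held 0.00616% of LRC reads and 0.0956% of non-LRC reads. Fibroblast markers (6 of 10 lower, 2 higher) had 0.0316% of LRC reads and 0.214% of non-LRC reads. Most of that difference was Dcn, with 4930 LRC reads and 92262 of the 103452 non-LRC reads of the list. The 2 higher were Col1a1 (1.06) and Lum (1.53). Endothelial markers (6 of 10 lower, 1 higher) had 0.00442% of LRC reads and 0.00711% of non-LRC reads. There Lyve1 had 84 LRC reads and 1335 of the 3435 non-LRC reads. T and NK cell markers (10 of 10 lower, Gzma at 0 reads in the LRC library) held 0.00138% of LRC reads and 0.0629% of non-LRC reads. Macrophage markers (0 lower and 2 higher of 9 measured, Cd163 at 0 reads in the non-LRC library) held 0.00518% of LRC reads and 0.00497% of non-LRC reads. Seminal vesicle secretion genes (8 of 8 higher, Svs6, Svs3a and Sva at 0 reads in the non-LRC library) held 0.167% of LRC reads and 0.00175% of non-LRC reads. In such bulk samples fewer cells of a type and less RNA per cell cannot be told apart. The part of these other cells in any difference of an IGF axis gene was not tested.

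In the LRC library both ligand genes and 3 of the 4 binding protein genes were at least 2-fold lower than in the non-LRC library, whereas the receptors, the adaptor and Igfbp7 were less than 2-fold apart. Igfbp3 stood farthest apart, 9.49-fold lower, followed by Igf1 at 5.48-fold, Igfbp4 at 4.60-fold, Igf2 at 3.63-fold and Igfbp2 at 3.02-fold lower. A gene was called higher at a log2 ratio (LRC over non-LRC, with 0.5 normalised counts added to each library) of 1 or more and lower at -1 or less, provided that its counting interval did not reach 0. Under that rule 5 of 10 members were lower, 0 were higher and 5 were neither. Genes averaging 10 or more normalised counts over the libraries counted as measured, and of these 17183 genes 19.4% were lower and 14.5% higher. At a 4-fold threshold 3 of 10 members were lower and 0 higher, where 9.64% of measured genes were lower and 4.32% higher. The median log2 ratio was -0.96 for the members and -0.0052 for all measured genes. The deposited scaling gave 2483 higher and 3330 lower genes in all. Scaling on total reads gave 1917 and 4001 and moved the median of all genes to -0.21. Scaling on the luminal keratins Krt8 and Krt18 gave 903 and 7128 and moved that median to -0.80. The same 5 members were lower under both, and Igf1r joined them under the keratin scaling.

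**Figure D1:**
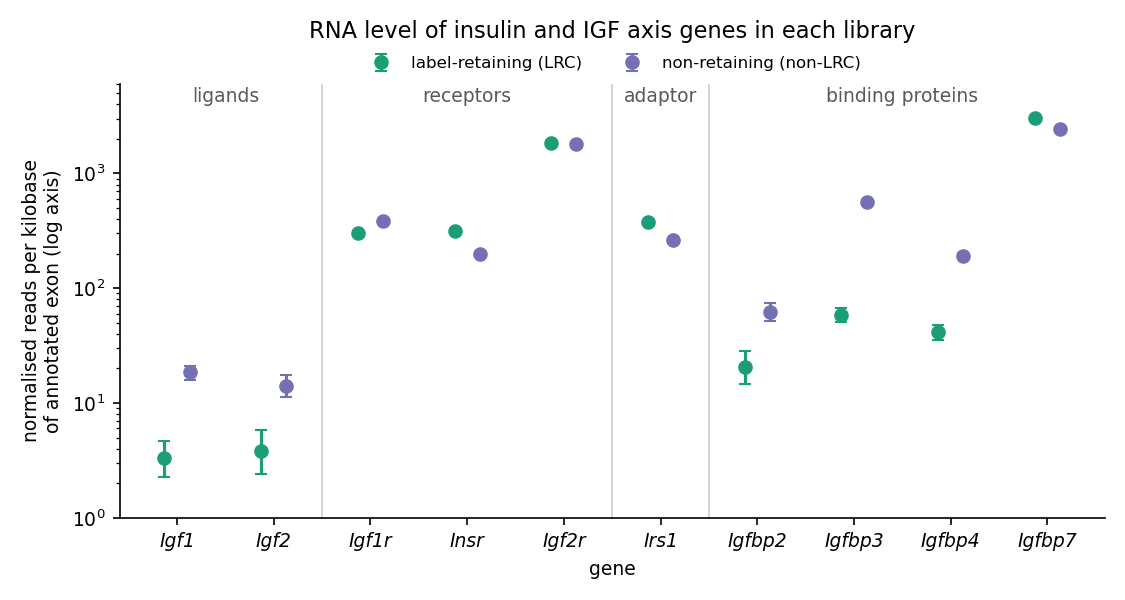
RNA level of each of the 10 genes in the LRC (green, left) and the non-LRC library (purple, right), as normalised reads per kilobase of annotated exon on a log axis. Points are single libraries and bars are exact Poisson 95% counting intervals, which overlap between the libraries for Igf2r alone of the 10, at 1831 in LRCs and 1817 in non-LRCs.

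Both ligand genes were scarce. Igf1 (ENSMUSG00000020053.17, chromosome 10, 87858265 to 87937042, plus strand, mm10) had 33 reads in the LRC library, against 201 in the non-LRC library. Its log2 ratio was -2.46 (interval -3.05 to -1.94). Igf2 (ENSMUSG00000048583.15, chromosome 7, 142650766 to 142666816, minus strand) had 22 reads in LRCs, against 89 in non-LRCs, a log2 ratio of -1.86 (-2.63 to -1.20). Per kilobase of annotated exon the LRC library held 3.32 normalised reads of Igf1 and 3.84 of Igf2, and the non-LRC library 18.5 of Igf1 and 14.1 of Igf2. These were the lowest levels of the 10 genes in both libraries, and within each library the counting intervals of the ligand genes overlapped. Igf1 exceeded 5.76% of measured genes in level per kilobase in the LRC library and 20.9% in the non-LRC library. Per kilobase the ratio of Igf1 to Igf2 was 0.867 in LRCs and 1.31 in non-LRCs, a difference within counting error (log2 -0.59, interval -1.50 to 0.34). H19, the imprinted noncoding gene that lies 72.6 kb from Igf2 and shares its control region, had 6 LRC reads against 24 non-LRC reads (log2 ratio -1.78, -3.45 to -0.54).

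The receptor genes were abundant by comparison. Igf1r (ENSMUSG00000005533.9, chromosome 7, 67952827 to 68233668, plus strand) had 5121 reads in the LRC library, against 7062 in the non-LRC library, and a log2 ratio of -0.33 (-0.38 to -0.28). Insr (ENSMUSG00000005534.9, chromosome 8, 3122061 to 3279617, minus strand) went the other way, with 4358 LRC reads against 2987 non-LRC reads and a log2 ratio of 0.68 (0.61 to 0.75). The LRC library thus had about as much Insr as Igf1r RNA per kilobase, a ratio of 1.04, and the non-LRC library 0.517. Reads of Insr relative to Igf1r were 2.01-fold higher in LRCs (interval 1.90 to 2.13), a comparison inside each library that no scaling between libraries can move. Igf1 reads relative to those of its receptor were lower in LRCs (log2 -2.14, -2.72 to -1.60). Under the keratin scaling Igf1r stood at -1.11 and Insr turned to -0.10, with all measured genes at a median of -0.80.

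Igf2r (ENSMUSG00000023830.12, chromosome 17, 12682406 to 12769664, minus strand) was the most abundant receptor gene, with 17078 LRC reads and 18590 non-LRC reads. Its normalised levels differed by less than counting error, at a log2 ratio of 0.01 (-0.02 to 0.04), and at 1831 (LRC) and 1817 (non-LRC) normalised reads per kilobase it exceeded 94.6% of measured genes in each. Under the keratin scaling it was at -0.77, close to the median of all genes. Airn, the noncoding RNA that silences the paternal Igf2r allele in mouse, is transcribed across the start of Igf2r on the opposite strand and had 734 LRC reads against 570 non-LRC reads (0.50, 0.34 to 0.66). How strand was used in counting is not given in the sources used here, so shared reads of Airn and Igf2r may not be told apart. Of the other genes of the mannose 6-phosphate route, 0 of the 12 measured were called higher and 0 lower, with log2 ratios of -0.29 to 0.92 and a median of 0.40. Under the keratin scaling 2 of them were lower and the list median was -0.38, against -0.80 for all measured genes. The most abundant, the second mannose 6-phosphate receptor gene M6pr, was at -0.27 (-0.32 to -0.23).

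Of the adaptor genes, Irs1 and Irs2 went opposite ways. Irs1 (ENSMUSG00000055980.2, chromosome 1, 82233101 to 82291416, minus strand) had 3431 reads in LRCs, against 2660 in non-LRCs, and a log2 ratio of 0.50 (0.43 to 0.57), under 2-fold. Irs2, the other widely expressed substrate of these receptors and not among the 10, had 2941 LRC reads against 21163 non-LRC reads and was lower at -2.71 (-2.77 to -2.66). Per kilobase, the ratio of Irs1 to Irs2 was 0.807 in LRCs and 0.0869 in non-LRCs. The ratio of their reads was 9.28-fold higher in LRCs (interval 8.70 to 9.90), again a comparison inside each library. Irs3 was called higher on 25 LRC reads against 7 non-LRC reads (1.89, 0.72 to 3.42), and Irs4, with 4 LRC reads against 8 non-LRC reads, was under the minimum level. Irs1 itself turned to -0.28 under the keratin scaling.

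Of the 4 binding protein genes 3 were lower. Igfbp3 (ENSMUSG00000020427.10, chromosome 11, 7206086 to 7213923, minus strand), the main carrier of IGFs in serum, had 184 reads in the LRC library, against 1921 in the non-LRC library, and a log2 ratio of -3.25 (-3.48 to -3.03). That ratio lay below those of all but 4.42% of measured genes. Igfbp4 (ENSMUSG00000017493.11, chromosome 11, 99041244 to 99054392, plus strand), which mostly restrains IGF action, had 183 LRC reads against 926 non-LRC reads (-2.20, -2.44 to -1.98). Igfbp3 differed more than Igfbp4, since the ratio of their reads was 1.01 in LRCs and 2.07 in non-LRCs (log2 difference -1.04, -1.37 to -0.72). Igfbp2 (ENSMUSG00000039323.17, chromosome 1, 72824503 to 72852474, plus strand) had 38 LRC reads against 127 non-LRC reads (-1.59, -2.17 to -1.07).

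Igfbp7 (ENSMUSG00000036256.12, chromosome 5, 77349240 to 77408041, minus strand), which binds IGFs only weakly, stood apart from the other 3. It had 3712 reads in the LRC library, against 3269 in the non-LRC library, and a log2 ratio of 0.32 (0.25 to 0.39), which turned to -0.47 under the keratin scaling. It was the most abundant of the 10 genes per kilobase in both libraries, at 3064 (LRC) and 2460 (non-LRC) normalised reads per kilobase. Reads of Igfbp7, not adjusted for gene length, made up 90.2% (exact binomial interval 89.2 to 91.1) of those of the 4 binding protein members in LRCs. In the non-LRC library they made up 52.4% (51.1 to 53.6). Per kilobase, its share of the 4 was 96.2% in LRCs and 75.2% in non-LRCs. Relative to Igfbp7, Igfbp3 reads were lower in LRCs by a log2 difference of -3.57 (-3.80 to -3.34).

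Another binding protein gene, Igfbp5, was not among the 10 but held most binding protein RNA in the non-LRC library. It had 3092 reads in the LRC library, against 45194 in the non-LRC library (-3.74, -3.79 to -3.68). Its gene lies tail to tail with Igfbp2 on chromosome 1, with 5.46 kb between them, and both were lower. Igfbp6 was not called, with 69 LRC reads against 102 non-LRC reads (-0.43, -0.89 to 0.02). Summed per kilobase, the 6 measured genes of the IGFBP1 to IGFBP7 family reached 3760.02 normalised reads in LRCs and 10199.7 in non-LRCs. Igfbp7 held 81.5% of that sum in LRCs and 24.1% in non-LRCs. Igfbp5 held 13.7% in LRCs and 67.1% in non-LRCs. Igfals, whose product joins IGFBP3 and an IGF in the serum complex, had 7 LRC reads against 167 non-LRC reads (-4.35, -5.78 to -3.37).

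**Figure D2:**
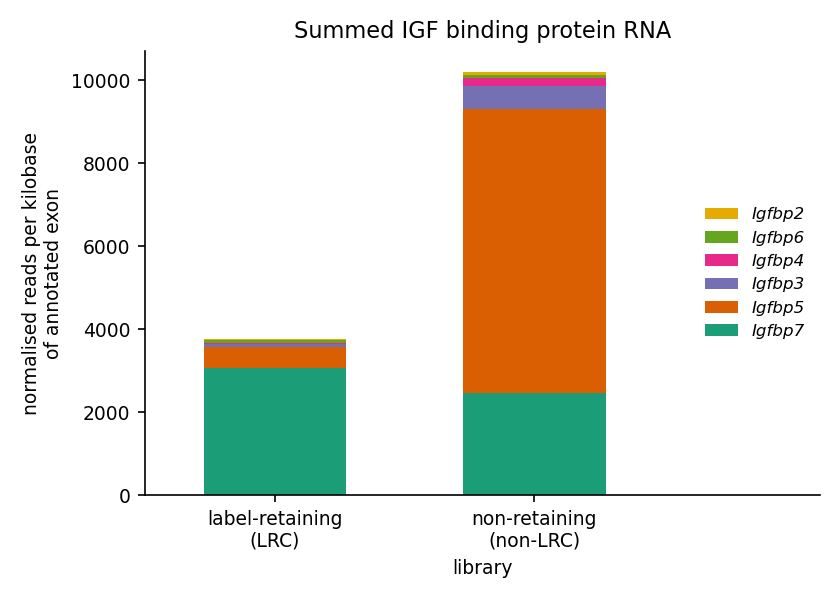
Summed RNA of the 6 measured genes of the IGFBP1 to IGFBP7 family in the LRC (left) and the non-LRC library (right), in normalised reads per kilobase of annotated exon. Each bar is 1 library without error bars. Igfbp7 fills 81.5% of the LRC bar and Igfbp5 67.1% of the non-LRC bar.

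Ranked by level per kilobase, Igfbp7 and Igf2r led in both libraries and the ligand genes came last. Igfbp3 was the sixth gene of the LRC library, at 58.7 normalised reads per kilobase, and the third of the non-LRC library, at 558. In the LRC library Insr and Igf1r, at 316 and 304, were neighbours in that order with overlapping counting intervals. In the non-LRC library it was Insr and Igfbp4, at 198 and 191. With the length of the longest transcript in place of all annotated exons, Irs1 moved below Insr in both libraries and below Igf1r in the LRC library. The order of Igf1 and Igf2 also turned in the LRC library.

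**Figure D3:**
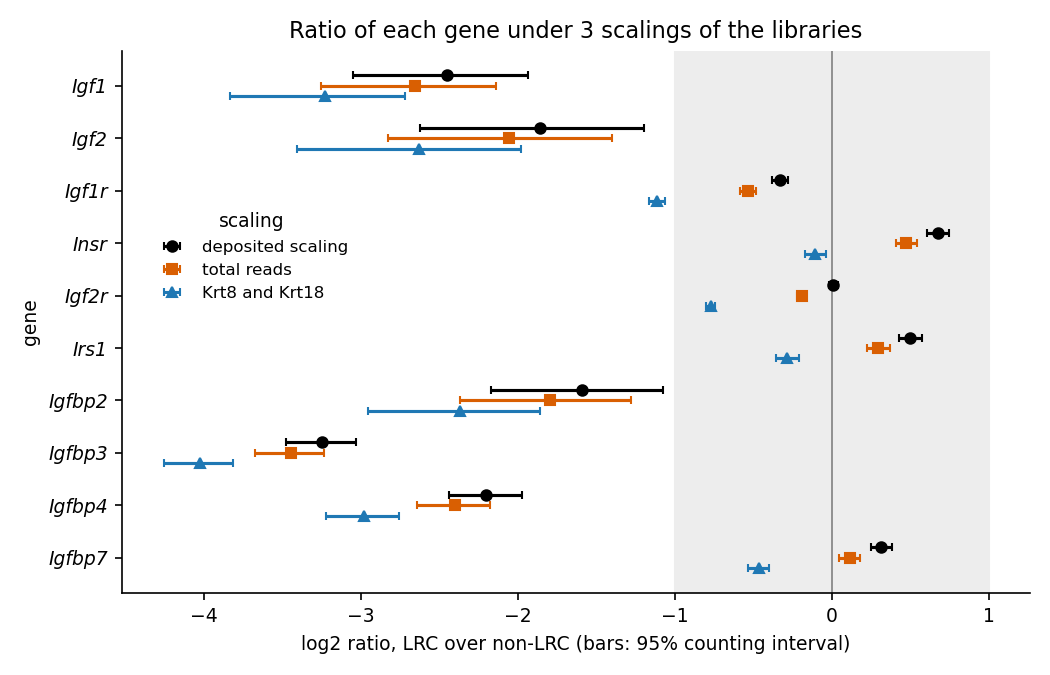
Log2 ratio (LRC over non-LRC) of each of the 10 genes under the deposited scaling (circles), total reads (squares) and the summed reads of Krt8 and Krt18 (triangles), with 95% counting intervals. The grey band spans ratios under 2-fold. Igf1, Igf2, Igfbp2, Igfbp3 and Igfbp4 lie left of the band under all 3, and Igf1r only under the keratin scaling, at -1.11.

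The sequences before the gene starts are shown for the pair of members on the same chromosome that were lower (Igfbp3, Igfbp4) and for the pair of receptor genes nearest to equality (Igf1r, Igf2r), so that both kinds can be read side by side. Each is the 250 bases upstream of the RefSeq start on GRCm38.p6, 5′ to 3′ on the gene's strand, at chr11:7213924-7214173 (minus), chr11:99040994-99041243 (plus), chr7:67952007-67952256 (plus) and chr17:12769707-12769956 (minus). Capitals mark the GC box GGGCGG or its reverse CCGCCC and the TATA box TATAAA or its reverse TTTATA.
Igfbp3: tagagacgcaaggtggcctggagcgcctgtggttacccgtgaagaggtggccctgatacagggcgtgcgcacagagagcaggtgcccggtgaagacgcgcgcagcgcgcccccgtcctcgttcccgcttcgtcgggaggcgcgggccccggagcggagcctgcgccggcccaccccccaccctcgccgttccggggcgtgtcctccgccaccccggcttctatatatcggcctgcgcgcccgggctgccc
Igfbp4: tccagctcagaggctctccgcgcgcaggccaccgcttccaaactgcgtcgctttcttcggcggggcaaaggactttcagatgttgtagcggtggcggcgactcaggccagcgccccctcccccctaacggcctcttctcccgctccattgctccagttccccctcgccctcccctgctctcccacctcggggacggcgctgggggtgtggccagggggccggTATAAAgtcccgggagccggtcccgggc
Igf1r: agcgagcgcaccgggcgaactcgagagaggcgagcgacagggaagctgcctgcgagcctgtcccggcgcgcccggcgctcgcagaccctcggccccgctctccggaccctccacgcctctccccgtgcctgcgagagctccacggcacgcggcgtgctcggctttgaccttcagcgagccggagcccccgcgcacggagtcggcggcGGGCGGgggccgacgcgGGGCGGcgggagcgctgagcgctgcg
Igf2r: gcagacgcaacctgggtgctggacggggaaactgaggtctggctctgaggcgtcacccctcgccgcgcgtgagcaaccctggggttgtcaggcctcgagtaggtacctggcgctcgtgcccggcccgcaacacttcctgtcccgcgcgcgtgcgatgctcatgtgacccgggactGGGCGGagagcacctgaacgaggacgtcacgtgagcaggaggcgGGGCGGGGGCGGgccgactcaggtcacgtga

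RefSeq windows were matched for 9 of the 10 genes, 13 windows in all, since Igf2 has 4 starts and Igfbp2 has 2. Insr, a member called neither, had no window. The GC box was in all 4 windows of the members called neither (Igf1r, Igf2r, Irs1 and Igfbp7) and in 3 of the 9 windows of the lower members. Those 3 were windows of Igf2 and Igfbp2, which are not printed above, so the printed windows of Igfbp3 and Igfbp4 do not stand for all lower members. Of all 32851 windows of this length 32.7% held the GC box. TATAAA or its reverse was in 1 member window, that of Igfbp4, and in 12.4% of all windows. A forkhead motif, GTAAACA or its reverse TGTTTAC, was in 0 of the 13 and in 3.17% of all. G and C made up 69.2% to 77.6% of the windows of members called neither and 47.6% to 73.2% of those of lower members, against a median of 52.4% over all windows. Different motifs do not overlap one another in the member windows, and a match is a description of letters, not of binding.

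Among 147 further genes listed around the axis, 134 were measured, of which 36 were lower, 13 higher and 85 neither (median log2 ratio -0.04). Over all measured genes 19.4% were lower and 14.5% higher, which is the background to the counts of each list. Their values are given along the route from ligand to response. IGFBP proteases and their inhibitors split, with 4 higher and 4 lower of 10. Pappa, whose product cuts IGFBP4 in the presence of IGF, had 1243 reads in the LRC library, against 251 in the non-LRC library (2.44, 2.24 to 2.64). Stc2, which encodes an inhibitor of that protease, was also higher (1.49, 1.28 to 1.71), as were the matrix protease gene Mmp7 (1.31, 1.27 to 1.35) and the urokinase gene Plau (1.30, 1.23 to 1.38). The secreted proteases Htra1 (-3.10, -3.24 to -2.97) and Adamts1 (-2.98, -3.01 to -2.95) were lower, and so was Adam12 at -1.22 (-2.07 to -0.48). Stc1, listed with Stc2 as an inhibitor gene, was lower at -2.03 (-2.56 to -1.56), opposite to Stc2. Ctsd at 0.76 and Pappa2 at -0.19 were not called. Of other ligand and receptor genes 3 were measured and 2 lower, Insrr on 2 LRC reads against 54 non-LRC reads (-4.31, -7.70 to -2.70) and the relaxin receptor gene Rxfp1 on 6 LRC reads against 33 non-LRC reads (-2.23, -3.87 to -1.05). Insl6, with 22 LRC reads against 26 non-LRC reads, was not called.

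In the mTOR list 16 of 18 were neither, with 1 higher, the mTOR inhibitor gene Deptor (1.40, 1.31 to 1.48), and 1 lower, Ddit4, whose product also restrains mTOR (-1.12, -1.18 to -1.05). Rps6, its most abundant gene, was at -0.44. Of 20 PI3K and AKT pathway genes 3 were higher and 4 lower, shares close to those of all measured genes, and 13 were neither. The called genes included Pik3cb, a catalytic subunit of PI3K, at 1.74 (1.63 to 1.86). The kinase genes Akt1 and Akt2 stood at -0.04 and -0.23. The lower genes farthest apart were Inpp5d (-4.22, -4.49 to -3.98) and Pik3cd (-4.29, -4.74 to -3.91), a lipid phosphatase and a PI3K subunit typical of leukocytes, and Inpp4b (-4.03, -4.58 to -3.55). The T and NK cell markers stood at a median of -4.97 in the same libraries, and their part in these values was not tested. Of the other 13 measured adaptor genes 2 were higher, Grb14, which encodes an inhibitor of the insulin receptor (1.94, 1.78 to 2.11), and Irs3, and 4 lower, among them Irs2 and Sh2b2 (-2.06, -2.43 to -1.71).

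Of 14 genes of receptor phosphatases and turnover 7 were lower and 0 higher, with a median of -0.99. They included Socs3 (-2.01, -2.08 to -1.95) and Socs2 (-1.74, -1.89 to -1.59), which encode feedback inhibitors of cytokine and growth hormone signalling, and Pcsk5, a proprotein convertase gene (-4.66, -4.92 to -4.43). Ptprf, the most abundant, was at -0.72. Of 15 FOXO factor and target genes 5 were lower and 1 higher, Klf15 (1.14, 1.02 to 1.25). The lower genes included Pdk4, a brake on glucose oxidation, at -3.72 (-3.83 to -3.61), and Sesn1 at -2.70 (-2.85 to -2.55). Txnip, which limits glucose uptake, was also lower, at -2.84 (-2.87 to -2.80). In the RAS and ERK list 12 of 16 were neither, 1 was higher, the kinase gene Mapk3 (1.27, 1.20 to 1.35), and 3 were lower. Those 3 were the feedback genes Dusp6 (-3.83, -3.90 to -3.76), Spry4 (-3.72, -3.89 to -3.56) and Spry2 (-1.36, -1.45 to -1.28). Of 10 measured genes of IGF2 mRNA binding and the imprinted network 4 were lower, among them Cdkn1c (-2.19, -2.38 to -2.00) and Plagl1 (-2.07, -2.39 to -1.77), and 1 higher, Meg3 (2.04, 1.77 to 2.33). Basal markers were lower in all 10 cases in these libraries, with a median of -4.39, and their part in these counts was not tested. Under the keratin scaling the 134 genes became 4 higher and 55 lower.

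**Figure D4:**
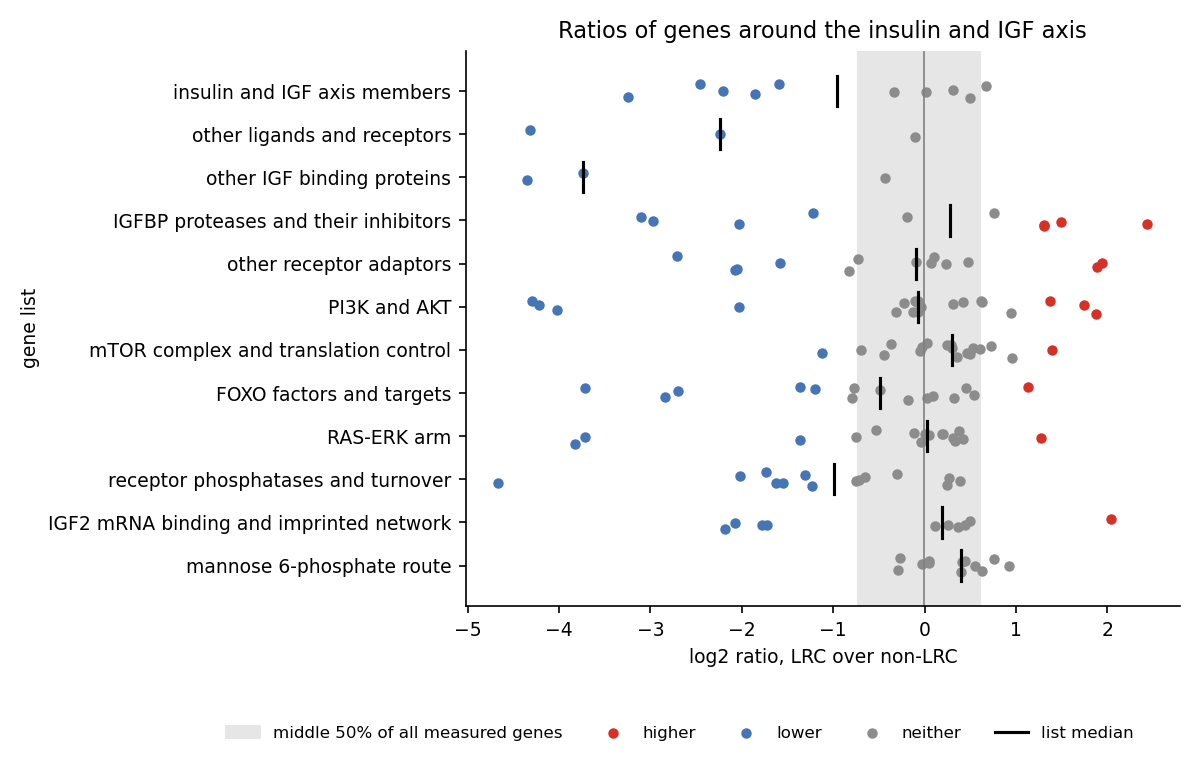
Log2 ratio (LRC over non-LRC) of every measured gene in the 10-gene axis and 11 surrounding lists, 1 point per gene, in red where called higher, blue where lower and grey where neither. Black bars are list medians and the grey band holds the middle 50% of all measured genes. The mannose 6-phosphate list has no called gene, whereas the phosphatase and turnover list has 7 lower and 0 higher.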

How the data were processed

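Sorted cells gave total RNA (RNeasy), and libraries were made with a stranded TruSeq kit that takes total RNA, per the labels' protocols. The deposited values are a normalised signal, gene read counts divided by the authors by a size factor for each library. Every value was a whole multiple of its column's step (100% within 1e-06 reads), giving size factors of 1.002 (LRC) and 1.10 (non-LRC). Per the submitters' processing notes, which state no roles, the tools were DESeq 1.16.0, HTSeq 0.6.0, Bowtie2 2.1.0, TopHat2 2.0.10 and CASAVA 1.8.2, on mm10. How strand, annotation and reads shared between genes were treated is not given there. Opposite-strand genes overlap Igf1, Igf2, Igf2r, Insr, Irs1 and Igfbp7, and Gm49394 overlaps Igf2 on its own strand, so these counts may include or lack shared reads.

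Symbols, positions and exon lengths came from GENCODE M21 (GRCm38, that is, mm10). Log2 ratios used a pseudocount of 0.5 and exact Clopper-Pearson intervals from recovered reads, and ratios of 2 genes the exact conditional interval of an odds ratio. The calculation was tested on simulated Poisson counts, which hold counting error only and so cannot show the spread between libraries. Alternatives were other scalings (TMM from edgeR 4.0.16 among them), a pseudocount, filters and a fold. Named genes were all members, up to 3 called genes and the most abundant gene of each list, and all IGFBP, IRS, AKT, insulin and IGFBP protease genes, of which some results are not reported here. H19, Airn, Mapk3, Klf15 and the paired genes outside the rule were named after their values were seen. The members and lists were chosen with earlier results of these data known. Python 3.11.15 and scipy 1.17.1 were used.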

Additional observations from a re-analysis of the deposited data

How the results depend on the processing

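Under 8 alternatives (3 scalings from all genes, the keratin scaling, a pseudocount of 5, no filter, a minimum of 100 and a 4-fold threshold) the count of higher members was 0 each time. The keratin scaling gave 6 lower members, the original 5 and Igf1r. Lower members numbered 3 at a minimum mean of 100, where Igf2 and Igfbp2 were no longer measured, and 3 at 4-fold, where they were under the threshold. Over all genes, higher calls numbered 903 with the keratin scaling, 1599 at a minimum of 100 and 742 at 4-fold, and lower calls 7128, 2009 and 1656. For the surrounding lists, higher calls numbered 4 with the keratin scaling and 2 at 4-fold, and lower calls 55 and 23. Of 345 other recomputed values 85 moved and 0 called members changed sign. Insr, Irs1, Igf2r and Igfbp7, which were not called, turned negative under the keratin scaling, and Igf2r also under total reads (-0.19). No paired analysis was possible because each group had 1 library. Depth limits Igf1, Igf2 and Igfbp2 most, each with under 40 LRC reads.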

Other observations

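Further pairs of related genes around the axis changed their balance between the libraries. They were chosen after their values were seen, and their ratios are taken inside each library, so that no scaling moves them. For the regulatory subunits of PI3K, Pik3r3 had 2581 reads and Pik3r1 4210 in the LRC library, against 768 of Pik3r3 and 18859 of Pik3r1 in the non-LRC library, and the ratio of Pik3r3 to Pik3r1 was 15.1-fold higher in LRCs (interval 13.8 to 16.4). Among the catalytic subunits, Pik3cb relative to Pik3ca was 3.53-fold higher in LRCs (3.22 to 3.86), with 2579 reads of Pik3cb and 3657 of Pik3ca in the LRC library and 845 of Pik3cb and 4226 of Pik3ca in the non-LRC library. Grb14 relative to its relative Grb10, both adaptors that damp the insulin receptor, was 6.39-fold higher (5.61 to 7.28). Pappa relative to Igfbp4, a protease and its substrate, was higher by 4.64 on the log2 scale (4.34 to 4.96), with 1243 reads of Pappa and 183 of Igfbp4 in the LRC library and 251 of Pappa and 926 of Igfbp4 in the non-LRC library.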
